A study of Mus musculus with 16 samples.

Results

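The Cyp2 genes encode a large family of drug and steroid metabolising cytochrome P450 enzymes of mouse liver. Here they were taken as every gene of the deposited table whose symbol is Cyp2 followed by a subfamily letter and a number. That gave 41 genes of 16793 in all, in 12 subfamilies: 14 Cyp2c, 8 Cyp2d, and 4 each of Cyp2a, Cyp2b and Cyp2j. Cyp2e, Cyp2f, Cyp2g, Cyp2r, Cyp2s, Cyp2t and Cyp2u had 1 gene each. Of the 41 genes, 36 had a mean of at least 10 normalised read counts in each experiment and were tested, and Cyp2b19, Cyp2c65, Cyp2g1, Cyp2j8 and Cyp2t4 were not.

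Poly(A) RNA of whole liver was sequenced at the last sampling time in mice labelled wild type, all with induced primary liver cancer. In the surgery experiment, female mice were ovariectomised (OVX, n = 4 libraries), which removes the main source of estrogen, or had sham surgery (Sham, n = 4). In the vector experiment, mice overexpressed LCAT in the liver (LCAT, n = 4) or received an empty vector (Vec, n = 4). LCAT is lecithin-cholesterol acyltransferase, a secreted hepatocyte enzyme that esterifies cholesterol in plasma lipoproteins. The sources used here do not state how the cancer was induced, the vector or its promoter, the animals' age, the sex of the vector mice, or whether tumour or surrounding tissue was taken.

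Microsomal P450 enzymes sit in the endoplasmic reticulum, bind their substrate beside a heme group, and take electrons from P450 oxidoreductase (Por) and cytochrome b5. In mouse liver most Cyp2 genes are expressed by hepatocytes, several of them mainly around the central vein, and they oxidise drugs, carcinogens, steroids, bile acids and arachidonic acid. Some are induced by foreign compounds through the nuclear receptors CAR (Nr1i3) and PXR (Nr1i2), and some differ between the sexes under the control of growth hormone.

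Recovered reads ranged from 17782178 to 27110501 in OVX, 21428827 to 25850761 in Sham, 12562943 to 19248762 in LCAT and 14412808 to 20659336 in Vec libraries. The targeted gene Lcat had 5014, 5074, 5106 and 4531 normalised counts in LCAT livers, against 3348, 2926, 4521 and 2980.1 in Vec livers, so the closest libraries differed by little. The log2 change was 0.54 (2-sided exact permutation p = 0.0286, which no 4 against 4 design can go below), and 0.35 (exact permutation p = 0.114) when library totals were set equal. In OVX livers Lcat had 3637, 3458, 3399 and 3061, against 5714, 5656, 5578 and 5701 in Sham livers, without overlap (log2 -0.74, exact permutation p = 0.0286). Summed counts of the Y-linked genes Ddx3y, Uty, Kdm5d and Eif2s3y were 0.675 to 3.93 in OVX and 0.839 to 7.38 in Sham libraries, but 1604 to 2083 in LCAT and 2356 to 2531 in Vec libraries. The vector experiment thus held male RNA, and sex and experiment cannot be told apart. Within it, 3 of the 4 Y-linked genes were called lower in LCAT than in Vec livers (median log2 change -0.67). Whether the 2 vector groups had the same sex make-up was not tested. All 11 hepatocyte markers in the table were expressed in every group, with Alb, the albumin gene, at 1803705 ± 45519.7, 2587181 ± 407746, 1800839.6 ± 193348 and 1886614 ± 81799.8 in OVX, Sham, LCAT and Vec libraries. Libraries 2 and 3 of a group lay between libraries 1 and 4 for 26 of the 36 tested Cyp2 genes in OVX, 26 in Sham and 30 in LCAT, but 3 in Vec (40.8%, 54.5%, 58.8% and 11.7% of all 13166 genes tested across the 4 groups). A fit on libraries 1 and 4 of each group alone called 0 Cyp2 genes in either experiment, where 0 genes of any kind were called in OVX against Sham, and 1 higher and 2 lower in LCAT against Vec; counts of lost calls below leave that fit out. The labels do not say that libraries came from separate animals, so p-values reflect only how these samples vary, which may be technical. In whole liver, fewer cells of a type and less RNA per cell cannot be told apart.

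By the group mean, Cyp2a4 was the most abundant Cyp2 transcript per kilobase in every group, at 17858 ± 6603, 17222 ± 2982, 29119.8 ± 15374 and 21648 ± 1256 normalised counts per kilobase of transcript in OVX, Sham, LCAT and Vec livers (SD, n = 4). The next places per kilobase were held by Cyp2d26, Cyp2a5 and Cyp2a12 in OVX and in Vec livers, by Cyp2d26, Cyp2a12 and Cyp2c70 in Sham livers, and by Cyp2e1, Cyp2a5 and Cyp2d9 in LCAT livers. Cyp2e1 stood second in LCAT livers at 18712 ± 9221 counts per kilobase, against 1102 ± 563 and ninth place in Vec livers. The order of these 2 genes was not the same in each LCAT library: Cyp2a4 had 50052, 29242, 23555 and 13631 counts per kilobase in LCAT libraries 1 to 4, and Cyp2e1 had 5989, 18199, 23699 and 26964, above Cyp2a4 in libraries 3 and 4. Without LCAT library 1, a check added after seeing the data, Cyp2e1 had the higher mean, 22954 ± 4430 against 22142 ± 7901 for Cyp2a4 (SD, n = 3). Cyp2c29, at 728 ± 97.9 counts per kilobase in OVX livers, ranked 14, against 4195 ± 1600.3 and rank 8 in Sham livers.

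All 41 genes together took 0.684% ± 0.152 of all normalised counts in OVX livers and 0.704% ± 0.0484 in Sham livers, and 1.15% ± 0.128 in LCAT livers and 0.657% ± 0.0182 in Vec livers (SD, n = 4 each). The LCAT libraries, 0.985% to 1.29%, did not overlap the Vec libraries, 0.641% to 0.680%, whereas the OVX libraries spread from 0.542% to 0.896% around the Sham libraries at 0.639% to 0.751%. Per kilobase, Cyp2a made up 51.9% ± 4.98 of the Cyp2 count in OVX and 40.9% ± 0.475 in Sham livers, while Cyp2c made up 11.1% ± 1.47 in OVX and 20.9% ± 0.783 in Sham livers. The LCAT livers were uneven: Cyp2a had shares of 60.5%, 43.7%, 36.7% and 26.6% in LCAT libraries 1 to 4, and Cyp2e1 had 3.86%, 14.2%, 19% and 25.6%. In Vec livers Cyp2a held 57.3% ± 1.25 and Cyp2e1 1.68% ± 0.831. The Cyp2d share was 25.3% ± 5.79 in OVX, 23.8% ± 0.538 in Sham, 23.8% ± 2.89 in LCAT and 26.9% ± 1.04 in Vec livers.

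**Figure D1:**
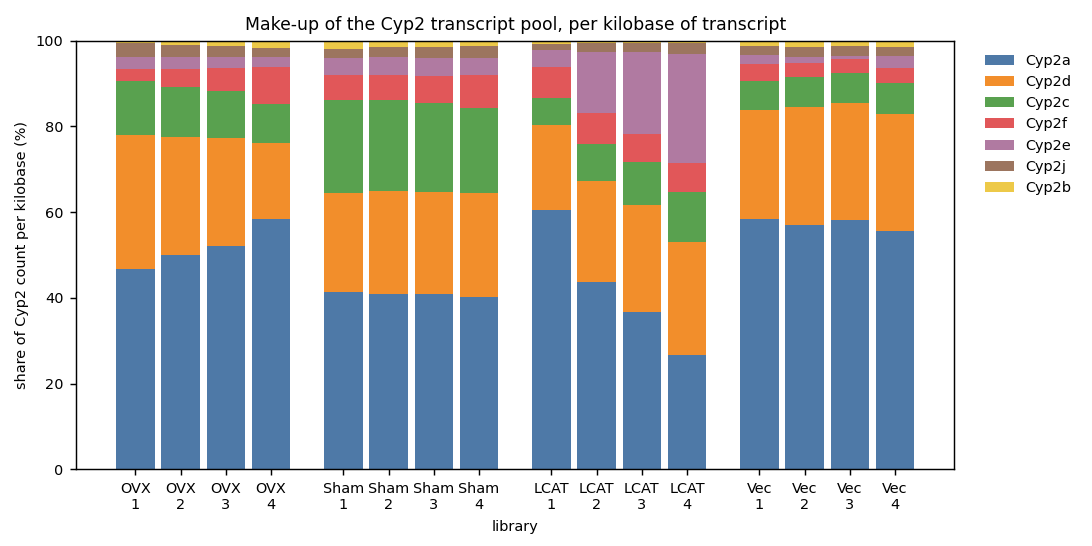
Share of each subfamily (percent, y axis) in the summed normalised count per kilobase of the Cyp2 genes, for each of the 16 libraries (x axis: group and library number). Cyp2c takes a smaller share in the OVX than in the Sham libraries, and LCAT library 1 has the lowest Cyp2e share, 3.86%, and the highest Cyp2a share, 60.5%, of its group.

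The surgery comparison asked how loss of the ovaries altered the cancer-bearing female liver. Of the 36 tested Cyp2 genes, 21 fell and 3 rose in OVX livers by limma at a Benjamini-Hochberg adjusted p below 0.05, where 39.6% of all 13059 genes tested were called, 20.6% lower and 19% higher. The share of Cyp2 genes that fell was 58.3%, and their median log2 fold change was -0.68, against 0.003 over all genes. Cyp2c carried most of the decrease (11 of 13 tested), with Cyp2e1, the phenobarbital-responsive Cyp2b10 and parts of Cyp2a, Cyp2d and Cyp2j beside it. The 3 that rose were Cyp2c44, Cyp2s1 and Cyp2u1. In 20 Cyp2 genes the OVX values lay wholly below the Sham values (20.1% of all genes) and in 3 wholly above them (18.9%). Setting library totals equal moved the median of all genes by 0.24 and gave 4453 genes higher and 1208 lower, against 2484 and 2686 as deposited. The Cyp2 calls were then 6 higher (Cyp2a5, Cyp2c44, Cyp2d9, Cyp2d12, Cyp2s1 and Cyp2u1) and 18 lower, with a median of -0.44.

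The vector comparison asked how LCAT overexpression altered the cancer-bearing liver, in libraries that held male RNA. Here 20 of the 36 tested Cyp2 genes rose and 2 fell in LCAT livers, where 40.7% of all 13095 genes tested were called, 20.2% higher and 20.5% lower. The Cyp2 share that rose was 55.6%, and the median log2 fold change was 0.99, against 0.004 over all genes. Cyp2e1 and 5 Cyp2c genes had means 15.2 to 21.9 times higher, and Cyp2d9, Cyp2f2 and Cyp2u1 rose by smaller amounts. Cyp2s1 and Cyp2c69 fell, and Cyp2a and Cyp2b had no gene past the threshold. The LCAT values lay wholly above the Vec values in 19 Cyp2 genes (20.2% of all genes) and wholly below them in 1 (20.3%). With equal library totals the median of all genes moved by -0.18 and the gene calls were 1793 higher and 3969 lower, against 2651 and 2681 as deposited. The Cyp2 calls were then 19 higher and 3 lower.

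Cyp2a encodes steroid and coumarin hydroxylases. Cyp2a4, a testosterone hydroxylase known as more active in female mice, and Cyp2a5, the coumarin hydroxylase that is the counterpart of human CYP2A6, are 98.4% identical in coding sequence. They lie on chromosome 7 of GRCm38 at 26307169 to 26315088 and 26835305 to 26843548, both on the plus strand. Their promoters are shown because the upstream sequences are 97.6% identical and the libraries fell in the same order within OVX, Sham and LCAT livers. The order differed in Vec livers, and the changes differed too. The log2 change was 0.00027 for Cyp2a4 and 0.59 for Cyp2a5 in OVX livers, and 0.28 and 0.89 in LCAT livers. With coding sequences this close, reads may be shared between them, and a part of the promoters in their pattern was not tested. The 250 bases before each RefSeq start (GRCm38.p6, plus strand, chr7:26306942-26307191 and chr7:26835089-26835338) are given 5′ to 3′. Capitals mark matches to the HNF1 element GTTAAT, the C/EBP motif TTGCNNAA and the TATA box TATAAA, named for factors and elements common in liver promoters.
Cyp2a4: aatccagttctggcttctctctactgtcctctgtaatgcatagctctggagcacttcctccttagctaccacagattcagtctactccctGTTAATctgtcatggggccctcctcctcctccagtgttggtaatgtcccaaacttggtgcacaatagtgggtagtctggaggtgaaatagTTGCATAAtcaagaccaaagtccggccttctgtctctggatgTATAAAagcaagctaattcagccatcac
Cyp2a5: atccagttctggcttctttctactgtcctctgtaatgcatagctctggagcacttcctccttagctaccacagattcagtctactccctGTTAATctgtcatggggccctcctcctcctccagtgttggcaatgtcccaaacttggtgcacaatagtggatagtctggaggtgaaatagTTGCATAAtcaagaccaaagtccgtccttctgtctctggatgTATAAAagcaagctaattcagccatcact

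Cyp2a4 had 20316, 26589, 30096 and 47146 normalised counts in OVX libraries 1 to 4, against 35694, 31817, 28809 and 23409 in Sham libraries. The groups overlapped, and library 4 was the highest in OVX and the lowest in Sham. Cyp2a4 had 86990.1, 50823, 40938 and 23690.0 in LCAT livers, against 40724, 36861, 35631 and 37279.7 in Vec livers, where LCAT library 1 was the highest of all 16 libraries and LCAT library 4 lay below every Vec library. Neither change passed: the log2 changes were 0.00027 (95% interval -0.56 to 0.56) and 0.28 (-0.49 to 1.04). Cyp2a5 followed the same order in OVX, Sham and LCAT livers but not in Vec livers. It had 12282, 16252, 18909.5 and 30231 in OVX and 13783, 12820.3, 11711 and 10665 in Sham livers. It had 63774, 36184, 27820.5 and 15315 in LCAT livers, against 18323, 15752, 17977 and 16038 in Vec livers. Its log2 changes of 0.59 and 0.89 both missed the threshold (limma adjusted p = 0.0836 in each). The OVX change of Cyp2a5 passed with equal library totals, by DESeq2 and without OVX library 1 (adjusted p of 0.0211 to 0.174 over the limma, edgeR and DESeq2 alternatives). The LCAT change passed with all 16 libraries in 1 fit, with limma's array weights, by edgeR, by DESeq2 and without LCAT library 4 (0.000974 to 0.166). The summed count of the pair was 50455 ± 19181 in OVX and 42177 ± 6526 in Sham livers, and 86384 ± 47260.4 in LCAT and 54647 ± 2963 in Vec livers.

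Cyp2a12, another testosterone hydroxylase, and its close relative Cyp2a22 are 97.0% identical. Cyp2a12 had 11948, 12054, 12076 and 12015 in OVX livers, against 17412, 16568, 15742 and 14754 in Sham livers, without overlap. Cyp2a22 had 1844, 1931, 1897 and 2015 in OVX livers, against 2849, 2762, 2643 and 2332 in Sham livers. Both fell by a modest amount, -0.42 (SE 0.07, limma adjusted p = 0.00245) and -0.46 (SE 0.076, limma adjusted p = 0.00252), and the OVX libraries were much tighter than the Sham libraries. With LCAT they had 18152, 13285, 12332 and 9894 and 2433, 1939, 1789.7 and 1704, against 10986, 9834, 11128 and 10200.2 and 1800.5, 1567, 1679.6 and 1583 in Vec livers. Those groups overlapped, and the log2 changes of 0.32 and 0.23 did not pass.

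Cyp2b contains Cyp2b10, the classic CAR target that phenobarbital induces, and Cyp2b9 and Cyp2b13, which are known as more active in female mouse liver. The 3 lie in 1 cluster on chromosome 7, all on the plus strand. Their upstream sequences are shown because Cyp2b9 and Cyp2b13 are 99.2% identical there. Cyp2b10 also had the largest decrease among the genes called in OVX livers, outside Cyp2d11. Coordinates on GRCm38.p6 are chr7:25897408-25897657, chr7:26061245-26061494 and chr7:26173159-26173408, and capitals mark the C/EBP motif.
Cyp2b10: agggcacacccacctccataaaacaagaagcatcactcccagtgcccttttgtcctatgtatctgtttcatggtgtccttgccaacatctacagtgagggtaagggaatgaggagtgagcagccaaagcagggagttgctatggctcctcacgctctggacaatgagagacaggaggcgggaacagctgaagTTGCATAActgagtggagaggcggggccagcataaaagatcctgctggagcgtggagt
Cyp2b13: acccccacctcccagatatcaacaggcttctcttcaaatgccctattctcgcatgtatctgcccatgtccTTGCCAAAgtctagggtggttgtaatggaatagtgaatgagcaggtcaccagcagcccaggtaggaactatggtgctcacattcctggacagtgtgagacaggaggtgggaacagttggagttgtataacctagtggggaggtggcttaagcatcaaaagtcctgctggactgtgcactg
Cyp2b9: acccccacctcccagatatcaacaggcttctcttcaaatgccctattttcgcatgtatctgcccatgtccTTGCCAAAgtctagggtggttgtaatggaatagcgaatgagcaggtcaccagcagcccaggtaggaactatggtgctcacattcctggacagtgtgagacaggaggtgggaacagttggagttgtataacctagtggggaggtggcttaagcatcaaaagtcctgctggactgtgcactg

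Cyp2b10 had 6.88, 16.9, 20.2 and 26.6 normalised counts in OVX livers, against 333, 318, 264 and 256 in Sham livers. Every OVX library lay far below the lowest Sham library, and the mean was 16.6 times lower in OVX livers. The log2 fold change was -4.11 (SE 0.35, limma adjusted p = 0.000137). With LCAT it had 96.4, 55.0, 44.9 and 24.7, against 43.0, 58.5, 53.8 and 61.2 in Vec livers, overlapping groups with a log2 change of -0.12 (-0.95 to 0.72). The difference between its OVX and LCAT effects was -3.99 (SE 0.53, limma adjusted p = 3.05e-05).

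Cyp2b13 had 13.0, 78.3, 87.9 and 230.1 in OVX livers, against 597, 432, 351 and 144 in Sham livers. OVX library 4 lay above Sham library 4, so the groups overlapped. Its log2 change of -2.30 (SE 0.80) barely passed (limma adjusted p = 0.0492) and was lost in 13 of 21 alternatives, where adjusted p ran from 0.0101 to 0.115, among them edgeR, the replicate block and the removal of any of 6 libraries. Those were OVX libraries 1, 2 and 3 and Sham libraries 1, 2 and 3. Cyp2b9, the most abundant Cyp2b gene, had 424, 766, 1150.1 and 2209 in OVX livers, against 2011, 1564, 1465 and 1093 in Sham livers. Here too library 4 was the highest in OVX and the lowest in Sham, and the change of -0.65 did not pass except without OVX library 4 (limma adjusted p = 0.0433; 0.0433 to 0.593 over the alternatives). With LCAT, Cyp2b9 had 1408, 978, 709 and 619.6, against 1417, 1448, 1188 and 1469.5 in Vec livers, a log2 change of -0.64 (limma adjusted p = 0.0605). It passed with equal library totals, with limma's array weights and without LCAT library 1 (0.00178 to 0.182 over the alternatives). Cyp2b13 had 129, 61.6, 23.0 and 18.5 in LCAT livers, against 38.6, 80.5, 34.0 and 80.4 in Vec livers, a change of -0.32 that did not pass. The keratinocyte gene Cyp2b19 had 2 reads in all, both in LCAT library 4.

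Cyp2c held the broadest response in both experiments. Of its 13 tested genes, 11 fell and Cyp2c44 rose in OVX livers (median -1.41), and 11 rose and Cyp2c69 fell in LCAT livers (median 2.48). The enzymes of this subfamily oxidise arachidonic and linoleic acid, steroids and many drugs, and Cyp2c70 makes the muricholic acids of mouse bile. All lie on chromosome 19 of GRCm38, and all but Cyp2c44 between 39007019 and 40187333.

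Cyp2c29, an arachidonic acid epoxygenase that CAR activators induce, had 1099, 1235, 1351 and 1509.7 in OVX livers, against 10736, 8392, 6867 and 3928 in Sham livers. The OVX libraries were close together and the Sham libraries ran over a wide range without reaching them. The mean was 5.76 times lower (log2 -2.44, SE 0.28, limma adjusted p = 0.000425). With LCAT, Cyp2c29 had 1609, 4273, 5514 and 6161, against 325, 207, 109 and 417 in Vec livers. LCAT library 1 was the lowest of its group and still several times the highest Vec library (log2 4.05, SE 0.52, limma adjusted p = 0.000612).

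Cyp2c37, a hydroxylase of arachidonic acid, had 226, 249, 241 and 264 in OVX livers, against 977, 864, 781 and 639 in Sham livers (log2 -1.72, SE 0.13). It had 271, 699, 856 and 1032 in LCAT livers, against 78.1, 13.4, 12.1 and 83.9 in Vec livers (log2 4.26, SE 0.73). Vec libraries 1 and 4 were well above Vec libraries 2 and 3, and the same split was seen in Cyp2c50 (157, 59.8, 53.8 and 163) and Cyp2c54 (46.5, 14.6, 14.3 and 59.4). Cyp2c37 is 96.1% identical in coding sequence to Cyp2c50 and 95.1% to Cyp2c54, so reads may be shared between them. The sum of these 3 genes was 737 ± 126 in OVX and 2404 ± 159.9 in Sham livers, and 2929 ± 1266 in LCAT and 189 ± 122 in Vec livers. Within the sum every OVX library (618 to 913) lay below every Sham library (2256 to 2624), and every LCAT library (1159 to 4013) above every Vec library (80.1 to 307). The log2 changes were -1.75 in OVX and 3.96 in LCAT livers for Cyp2c50, and -1.54 and 4.14 for Cyp2c54, all past the threshold.

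Cyp2c38, a close relative of Cyp2c39 (94.2% identical), had the largest increase with LCAT among the called genes. It had 140.0, 321, 375 and 469.8 in LCAT livers, against 15.8, 18.3, 5.49 and 20.1 in Vec livers, a 21.9-fold higher mean (log2 4.37, SE 0.47, limma adjusted p = 0.000258). In OVX livers it had 313, 311, 290.2 and 284, against 948, 707, 592 and 361 in Sham livers, and its log2 change of -1.04 passed (limma adjusted p = 0.0129) but did not with all 16 libraries in 1 fit (limma adjusted p = 0.0529; 0.000121 to 0.0529 over the alternatives). Cyp2c39, which hydroxylates retinoic acid, changed by -1.41 in OVX and 2.73 in LCAT livers, both past the threshold.

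Cyp2c40, Cyp2c67, Cyp2c68 and Cyp2c69 are near copies of each other. Cyp2c67 and Cyp2c69 are 97.7% identical, and 44.1% of the 100-base words of the Cyp2c40 transcript and 36.3% of those of Cyp2c69 also occur in other Cyp2 genes. Upstream, these 4 genes shared the HNF4 motif CAAAGTCCA, bound by a master regulator of hepatocyte genes. It was found before Cyp2c40, Cyp2c65, Cyp2c67, Cyp2c68, Cyp2c69 and Cyp2c70, that is in 17.1% of 35 Cyp2 promoters and 0.384% of all 32851 promoters of the table. A pair is shown for comparison, on the minus strand of GRCm38.p6 at chr19:39812815-39813064 and chr19:39886770-39887019, with HNF1 (here as ATTAAC on the other strand), HNF4 and C/EBP matches in capitals. The pair is 77.5% identical when aligned end to end. That figure includes unmatched window ends, because the windows are offset. The HNF4 match lies at -45 from the start in Cyp2c40 and at -75 in Cyp2c69. The Cyp2c40 window stops inside the stretch that holds the C/EBP match in Cyp2c69, so it does not show whether Cyp2c40 lacks that match.
Cyp2c40: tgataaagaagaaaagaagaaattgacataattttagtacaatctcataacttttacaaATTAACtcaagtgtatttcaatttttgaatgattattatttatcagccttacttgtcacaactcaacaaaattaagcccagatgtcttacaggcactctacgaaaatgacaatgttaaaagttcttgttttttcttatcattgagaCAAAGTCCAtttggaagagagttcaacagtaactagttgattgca
Cyp2c69: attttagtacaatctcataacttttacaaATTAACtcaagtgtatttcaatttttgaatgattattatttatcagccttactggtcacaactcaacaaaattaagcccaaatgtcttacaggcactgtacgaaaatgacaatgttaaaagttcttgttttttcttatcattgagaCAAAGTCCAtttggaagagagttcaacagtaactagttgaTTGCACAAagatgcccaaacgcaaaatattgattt

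The 4 copies fell together in OVX livers and parted in LCAT livers. In OVX livers the log2 changes were -1.52 for Cyp2c40, -0.93 for Cyp2c67, -1.33 for Cyp2c68 and -1.95 for Cyp2c69, with no overlap between the groups. Cyp2c69, known as more active in females, had 359.9, 399.8, 394 and 456 in OVX livers, against 1835, 1739, 1498 and 1209 in Sham livers (limma adjusted p = 6.15e-05, and 0.252 with all 16 libraries in 1 fit, 4.66e-35 to 0.252 over the alternatives). With LCAT it was counted in library 1 alone (272, 0, 0 and 0), against 121, 116, 117 and 134 in Vec livers. The groups overlapped and the call (log2 -4.92, limma adjusted p = 0.0487) was lost in 12 of 20 alternatives with an adjusted p (from 1.13e-06 to 0.618), including edgeR and the removal of any library but LCAT library 1. Cyp2c40, Cyp2c67 and Cyp2c68 rose with LCAT by 1.45, 2.48 and 0.98. The sum of the 4 copies was 3229.6 ± 323 in OVX and 8539 ± 1205 in Sham livers, and 3934 ± 261 in LCAT and 1436 ± 86.0 in Vec livers, so the LCAT sums were higher although Cyp2c69 was listed at 0 in 3 LCAT libraries.

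Cyp2c70 had the highest mean of the subfamily, 6651, 6927, 6573 and 6688 in OVX livers, against 11831, 11619, 11189 and 10786 in Sham livers. The 4 OVX libraries lay within a narrow range well below the Sham libraries (log2 -0.76, SE 0.06, limma adjusted p = 9.68e-05). It had 9009, 6523, 6268 and 4846 in LCAT livers, against 5795, 5453, 5647 and 5549 in Vec livers, a change of 0.21 that did not pass. Cyp2c55, a colon-expressed hydroxylase that PXR and CAR activators induce, had 34.2, 58.3, 44.9 and 57.2 in LCAT livers, against 3.51, 30.5, 7.68 and 12.2 in Vec livers, and rose (log2 2.10, limma adjusted p = 0.0157). In OVX livers it had 19.9, 25.0, 25.5 and 90.5, against 26.3, 47.0, 57.9 and 65.7 in Sham livers, and did not pass (log2 -0.49).

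Cyp2c44, an arachidonic acid epoxygenase listed in RefSeq under the current symbol Cyp2c23, departed from its subfamily in OVX livers but not in LCAT livers. It had 675, 681, 681 and 716 in OVX livers, against 424, 406, 464 and 522 in Sham livers, and was the 1 Cyp2c gene to rise there (log2 0.61, SE 0.088, limma adjusted p = 0.00138, and 0.069 with all 16 libraries in 1 fit, 2.89e-08 to 0.069 over the alternatives). It also rose with LCAT, to 790.3, 1852, 2201 and 2435 in LCAT livers, against 409.8, 423, 341 and 377 in Vec livers (log2 2.11). Its gene lies at 44005022 to 44029208, on the minus strand and away from the main Cyp2c cluster. None of its 100-base words is found in transcripts of other Cyp2 genes, the only ones searched.

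Cyp2d enzymes metabolise basic drugs and steroids in the mouse, and Cyp2d22 is usually taken as the counterpart of human CYP2D6. Of 8 tested genes, 4 fell and 0 rose in OVX livers (median -0.45) and 4 rose and 0 fell in LCAT livers (median 0.78). Cyp2d9, a testosterone hydroxylase known as more active in male mice, had 3124, 3023, 2970.2 and 2629 in OVX livers, against 3146, 3025, 2735 and 2641 in Sham livers. The ranges overlapped almost wholly (log2 0.03, 95% interval -0.17 to 0.22), and the change passed with equal library totals and in no other alternative (limma adjusted p = 0.83 as deposited, 0.00966 to 0.998 over the alternatives). With LCAT it had 15114, 17110.4, 19679.6 and 19045, against 5315, 5248, 5450.1 and 5441 in Vec livers, 3.31 times higher on average (log2 1.72, SE 0.097, limma adjusted p = 9.47e-06).

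Cyp2d40 had 1576, 1786, 2061 and 1755 in LCAT livers, against 673, 657, 645 and 681 in Vec livers (log2 1.43, limma adjusted p = 2e-05). In OVX livers it had 575, 612, 616 and 654, against 1012, 873, 781 and 679.8 in Sham livers, a log2 change of -0.43 (limma adjusted p = 0.0213) that was lost in 6 of 21 alternatives (0.00111 to 0.151), among them the removal of OVX library 1, 2 or 3 or Sham library 2. Cyp2d26, the highest of the subfamily in OVX, Sham and Vec livers, had 17765, 17584, 16774 and 14228 in OVX livers, against 19213, 18525, 17511 and 16571 in Sham livers, and 19464, 16349, 15973 and 13383 in LCAT livers, against 15771, 15591, 14925 and 16193 in Vec livers. The groups overlapped in both experiments and neither change passed. Cyp2d22 fell by 0.59 on the log2 scale in OVX livers, to 2383 ± 87.2, against 3589 ± 65.0 in Sham livers, and rose by 0.60 in LCAT livers, to 3745 ± 133, against 2473 ± 47.9 in Vec livers. Cyp2d10 changed by -0.46 in OVX livers, which did not pass with equal library totals (limma adjusted p = 0.0835; 0.00038 to 0.0835 over the alternatives), and by 0.95 in LCAT livers.

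Cyp2d11, Cyp2d12 and Cyp2d34 were at 0 in some libraries and well counted in others of the same group. Cyp2d11, 94.7% identical to Cyp2d10, was at 0 in all OVX libraries, against 730.2, 1469, 587 and 0 in Sham livers. It had 0 reads in OVX and 3133 in Sham libraries. The pooled reads were thus at least 1156-fold lower in OVX livers, against a floor of 3 reads over the group. Sham library 4 was also at 0, so this bound does not hold for each library. The call was lost when any of 6 libraries was left out: OVX library 1, 2 or 3 or Sham library 1, 2 or 3 (limma adjusted p = 0.0232 with all libraries, 1.44e-05 to 0.0662 over the alternatives). Cyp2d11 had 0, 1977, 0 and 0 in LCAT livers, against 0 in all Vec libraries. With coding sequences this close, reads may be shared between Cyp2d11 and Cyp2d10. Cyp2d12 was 308, 326, 314 and 273 in OVX and 321, 336, 278 and 291 in Sham livers, but 0, 44.0, 0 and 0 in LCAT and 0, 0, 525 and 0 in Vec livers. Cyp2d34 was above 0 in 5 of the 16 libraries: it had 0, 10.8, 0 and 0 in OVX and 0, 0, 61.3 and 48.4 in Sham livers, and 0, 0, 0 and 0 in LCAT and 0, 0, 70.2 and 55.0 in Vec livers. The sum of Cyp2d9, Cyp2d10, Cyp2d11, Cyp2d12 and Cyp2d34 was 9188 ± 242 in OVX and 12208 ± 2099 in Sham livers, and 29675 ± 1551 in LCAT and 11413 ± 495 in Vec livers. Setting the genes at 0 in a group to their bounds left the medians of the subfamily and of all 36 genes as given.

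Cyp2j enzymes are epoxygenases of arachidonic acid. Cyp2j5, the main liver and kidney form, had 3146, 3297, 3156 and 3226 in OVX livers, against 3403, 3472, 3432 and 3489.5 in Sham livers. All OVX libraries lay below all Sham libraries by a small margin, and the change of -0.11 did not pass (limma adjusted p = 0.14). It had 4012, 4768, 5157 and 5211 in LCAT livers, against 2086, 2036, 2298 and 2114 in Vec livers, and rose (log2 1.16, SE 0.10, limma adjusted p = 8.23e-05). Cyp2j9 had 71.8, 62.1, 69.5 and 46.2 in OVX livers, against 395, 316, 259.6 and 153 in Sham livers, and was lower (log2 -2.09, SE 0.28). It had 46.7, 68.2, 90.8 and 91.2 in LCAT livers, against 42.1, 32.9, 20.8 and 52.4 in Vec livers. LCAT library 1 lay within the Vec range. Its LCAT call (log2 change 1.01, limma adjusted p = 0.0363) was lost in 8 of 21 alternatives (0.0124 to 0.0954): with equal totals, with the replicate number as a block, and without LCAT library 2, 3 or 4 or Vec library 1, 2 or 3. Cyp2j6 passed in neither experiment (log2 -0.04 and 0.13). Cyp2j8, too low to be tested, had 40 reads in Sham libraries 1 to 3 together and 0 in the other 13 libraries. Its pooled reads were at least 14.8-fold lower in OVX than in Sham livers, against a floor of 3 reads. Sham library 4 was also at 0, so this bound does not hold for each library.

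Cyp2e1 oxidises ethanol and small solvents and activates paracetamol and nitrosamine carcinogens, and in healthy liver it is concentrated around the central vein. Its 250 bases before the RefSeq start (chr7:140763569-140763818, GRCm38.p6, plus strand) are shown as the promoter of the gene with the largest gain in counts, with the TATA box in capitals.
Cyp2e1: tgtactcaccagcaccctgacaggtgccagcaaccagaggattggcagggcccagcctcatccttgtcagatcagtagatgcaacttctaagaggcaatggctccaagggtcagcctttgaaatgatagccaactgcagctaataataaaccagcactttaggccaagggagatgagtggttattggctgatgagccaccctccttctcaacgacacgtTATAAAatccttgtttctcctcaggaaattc

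Cyp2e1 had 2860.0, 3193, 3047 and 3713 in OVX livers, against 7013, 6682, 6239.7 and 5328 in Sham livers. The groups were apart, and the mean was 1.97 times lower (log2 -0.98, SE 0.11, limma adjusted p = 0.000431, and 0.0848 with all 16 libraries in 1 fit, 4.12e-14 to 0.0848 over the alternatives). With LCAT it had 10978, 33358, 43439.6 and 49424, against 2574, 1583, 803 and 3123 in Vec livers. LCAT library 1 was more than 3 times lower than the next LCAT library and more than 3 times higher than the highest Vec library. The mean was 17 times higher (log2 4.06, SE 0.56, limma adjusted p = 0.000876).

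Cyp2f2, which activates naphthalene in mouse airway and is periportal in liver, had 2838, 4933, 6847 and 13686 in OVX livers, against 9991, 9708, 9495 and 10078 in Sham livers. The OVX libraries ran from well below to above the even Sham libraries, and the change of -0.71 passed only without OVX library 4 or with limma's array weights (limma adjusted p = 0.188 with all libraries, 0.0144 to 0.405 over the alternatives). It had 21049, 17560.5, 15366 and 13315 in LCAT livers, against 4931, 4003, 3993 and 4364 in Vec livers, a clear rise (log2 1.94, SE 0.15, limma adjusted p = 4.19e-05). Here LCAT library 1 was the highest of its group, the reverse of Cyp2e1.

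Cyp2u1, a long-chain fatty acid hydroxylase, had 85.6, 92.5, 83.5 and 117 in OVX livers, against 34.8, 55.4, 48.5 and 61.1 in Sham livers, and rose (log2 0.93, limma adjusted p = 0.00876). It also rose with LCAT, to 418, 338, 334 and 304 in LCAT livers, against 86.0, 90.2, 80.1 and 82.1 in Vec livers (log2 2.02, limma adjusted p = 1.24e-05). Cyp2s1, a mostly extrahepatic enzyme that dioxin induces, had 19.9, 12.2, 12.3 and 22.6 in OVX livers, against 7.38, 2.52, 7.66 and 6.39 in Sham livers. It rose (log2 1.38, limma adjusted p = 0.0237), though not without OVX library 1 (limma adjusted p = 0.0668; 0.00475 to 0.0668 over the alternatives). With LCAT it was 1 of the 2 genes that fell, with 29.6, 29.7, 25.0 and 20.1 in LCAT livers, against 69.3, 65.9, 34.0 and 56.8 in Vec livers (log2 -1.05, limma adjusted p = 0.0128).

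Cyp2r1, which hydroxylates vitamin D in the liver, had 121, 132, 122 and 141 in OVX livers, against 212, 140.2, 135 and 136 in Sham livers, and 212, 124, 138 and 122 in LCAT livers, against 121, 118, 148 and 156 in Vec livers. The groups overlapped and neither change passed (log2 -0.24 and 0.11). Cyp2g1, an olfactory enzyme, had 4.58, 5.40, 6.15 and 14.8 in OVX and 12.6, 1.68, 3.40 and 2.74 in Sham livers, and 0, 0, 21.9 and 13.9 in LCAT and 0, 2.44, 0 and 0 in Vec livers. Cyp2t4 was at 0 in all OVX libraries, against 19, 10.9, 5.96 and 0 in Sham livers, where the last library was at 0 as well. Its pooled reads were at least 14-fold lower in OVX livers, a bound that does not hold for each library. Cyp2t4 was above 0 in 3 LCAT libraries and in 0 Vec libraries. Cyp2c65, a gut enzyme, had 2 reads, in LCAT library 1. Levels this low allow no comparison beyond these bounds. The sources used here do not state a strand setting. Cyp2a4, Cyp2f2 and Cyp2u1 overlap the antisense genes Gm42375, Gm15883 and 4930534D22Rik, and Cyp2t4 overlaps Egln2. Cyp2s1, a gene of low counts, overlaps Gm26707 and Gm45226 on the other strand. Reads of these overlapping genes cannot be told apart. Annotated pseudogenes also overlap Cyp2a22, Cyp2b13, Cyp2c29 and Cyp2d9.

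**Figure D2:**
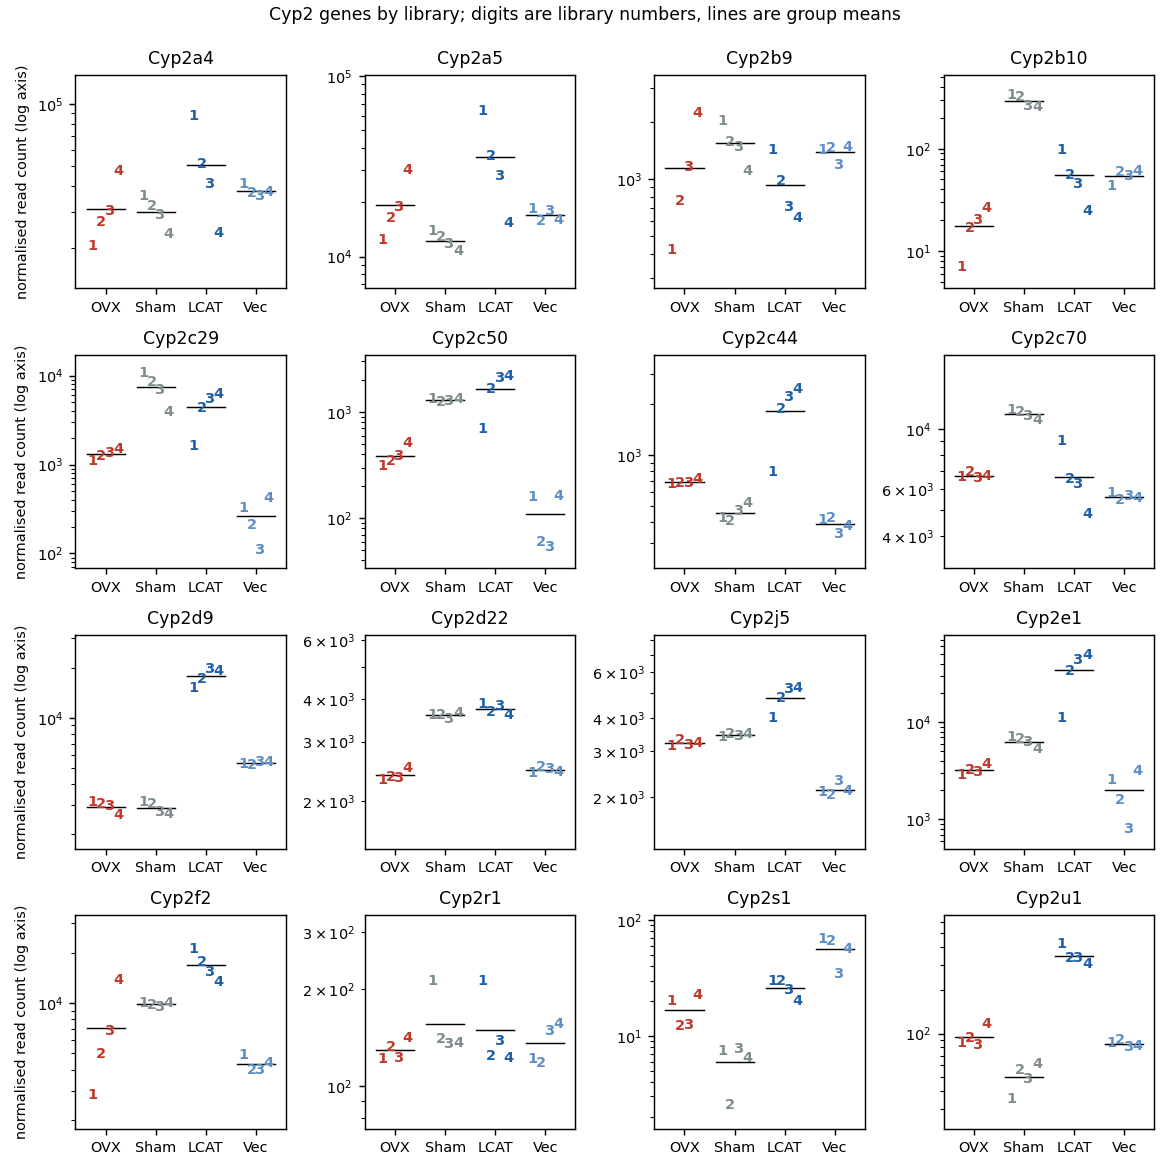
Normalised read counts (y axis, log scale) of 16 Cyp2 genes in OVX, Sham, LCAT and Vec livers (x axis); each digit is a library, named by its number, and each line is the group's mean. Cyp2b10 and Cyp2c29 are apart between OVX and Sham, Cyp2e1 and Cyp2c50 are apart between LCAT and Vec with LCAT library 1 lowest of its group, and Cyp2a4, Cyp2a5, Cyp2b9 and Cyp2f2 have OVX library 4 highest of its group.

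The effects of the 2 treatments were set against each other in 1 fit of all 16 libraries. The OVX effect was below the LCAT effect in 25 of 36 Cyp2 genes and above it in 1, Cyp2s1, where 44.8% of 13166 genes were called, 21.9% below and 22.9% above. The largest differences among genes counted in every library were -6.49 for Cyp2c29, -5.97 for Cyp2c37, -5.72 for Cyp2c50, -5.67 for Cyp2c54, -5.40 for Cyp2c38 and -5.04 for Cyp2e1. Lower in OVX and higher in LCAT livers were 14 of the 36 genes, 38.9%, against 6.78% of the 12784 genes tested in both experiments. These were 9 Cyp2c genes, Cyp2d10, Cyp2d22, Cyp2d40, Cyp2e1 and Cyp2j9. Cyp2s1 alone was higher in OVX and lower in LCAT livers (5.15% of all genes), Cyp2c44 and Cyp2u1 were higher in both (2.32%), and Cyp2c69 was lower in both (3.45%). The experiments differ in sex as well as in treatment, and the part of sex in this difference cannot be told apart.

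**Figure D3:**
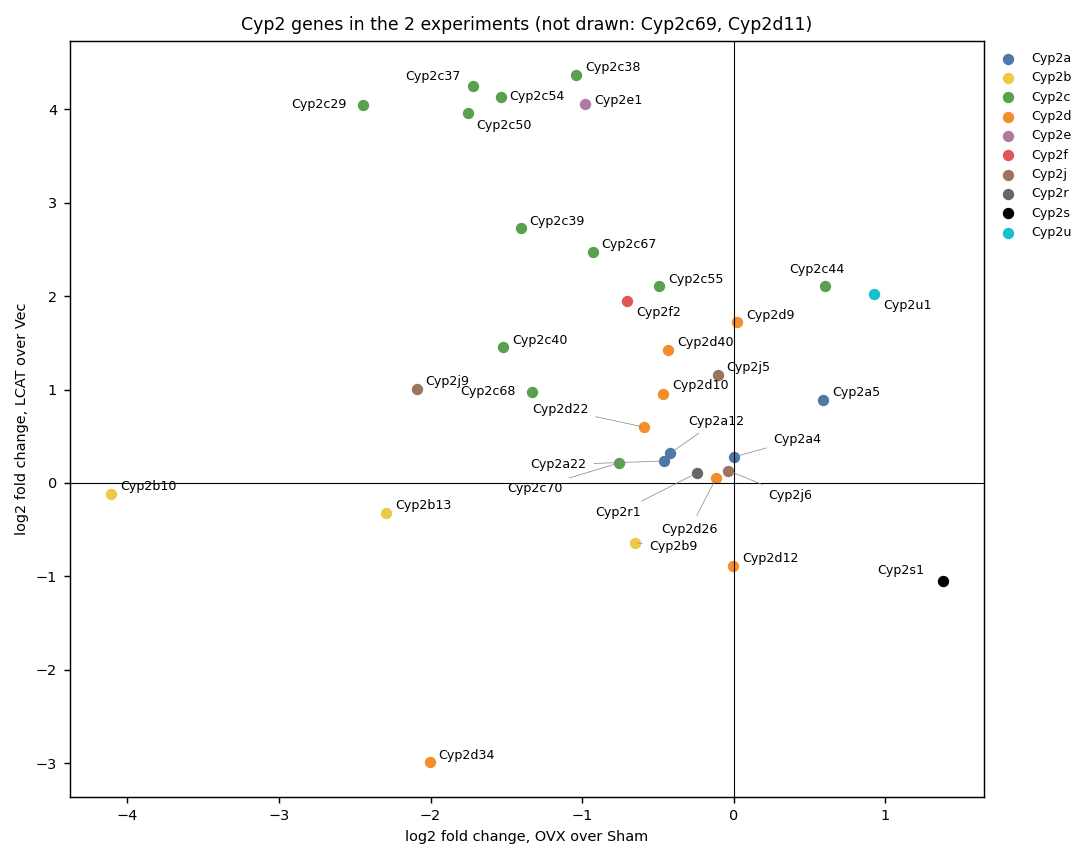
Log2 fold change in OVX over Sham livers (x axis) against that in LCAT over Vec livers (y axis) for 34 Cyp2 genes, coloured by subfamily; Cyp2d11 (-7.31 in OVX livers) and Cyp2c69 (-4.92 in LCAT livers) lie beyond the plotted range and are not drawn. Most Cyp2c genes and Cyp2e1 lie in the upper left, Cyp2c44 and Cyp2u1 in the upper right, Cyp2s1 in the lower right, and Cyp2b10 lies far left at a height near 0.

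Grouped by known behaviour, 4 of the 6 members known as more active in female mice fell in OVX livers (Cyp2b10, Cyp2b13, Cyp2c40 and Cyp2c69) and 0 rose, with a median of -1.73, while Cyp2a4 and Cyp2b9 did not pass. In LCAT livers 1 of these 6 rose (Cyp2c40) and 1 fell (Cyp2c69). The Cyp2b13 call in OVX livers was lost in 13 of 21 alternatives, and the Cyp2c69 call in LCAT livers in 12 of 20. Cyp2c40 and Cyp2c69 are near copies that may share reads. The shares over all genes tested were 20.6% lower and 19% higher in OVX livers, and 20.2% higher and 20.5% lower in LCAT livers. The male-active Cyp2d9 passed in LCAT livers, and in OVX livers only with equal library totals. Of 7 members inducible through CAR or PXR, 5 fell and 0 rose in OVX livers (median -1.72), and 5 rose and 0 fell in LCAT livers (median 3.96). Cyp2c37, Cyp2c50 and Cyp2c54 among these 7 are near copies that may share reads. Of 11 other targets of these receptors, among them Por and Alas1 that also stand in the electron and heme list, 5 fell and 1 rose in OVX livers (median -0.16) and 6 rose and 1 fell in LCAT livers (median 0.68). Cyp3a11, the main steroid and drug oxidase among them, had 9183 ± 3109.9 in OVX livers, against 34593 ± 1703 in Sham livers (log2 -1.97), and 27484 ± 7629 in LCAT livers, against 7765 ± 773 in Vec livers (log2 1.78).

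The receptors themselves moved less evenly. Nr1i3, which encodes CAR, had 857, 761, 714 and 495 in OVX livers, against 686, 1064, 1255 and 1849 in Sham livers, a change of -0.72 that did not pass (limma adjusted p = 0.0794). It had 1056, 1802, 2041 and 2375 in LCAT livers, against 447, 335, 352 and 497 in Vec livers, and rose (log2 2.11, limma adjusted p = 0.000413). Nr1i2, which encodes PXR, fell to 992 ± 31.2 in OVX livers, against 1729 ± 225 in Sham livers (log2 -0.79, limma adjusted p = 0.000645), and did not pass with LCAT (log2 0.06). Of 24 regulators of Cyp2 genes, 8 fell and 4 rose in OVX livers (median -0.14), and of 23 tested in LCAT livers 6 rose and 3 fell (median -0.07). Over all genes tested 20.6% fell and 19% rose in OVX livers, and 20.2% rose and 20.5% fell in LCAT livers. Cux2, a transcription factor of female liver, fell by 2.44 on the log2 scale in OVX livers, to 42.6 ± 5.92, against 235 ± 20.3 in Sham livers. The glucocorticoid receptor gene Nr3c1 fell in OVX livers (-0.68) and in LCAT livers (-0.82). In LCAT livers Bcl6, a repressor more active in male liver, rose (1.35) and Onecut1 fell (-1.44). Esr1, which encodes estrogen receptor alpha, did not pass in OVX livers (log2 -0.04) and rose in LCAT livers (log2 0.37, limma adjusted p = 0.0277). Stat5b, which carries growth hormone signals, passed in neither (-0.10 and -0.29).

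Of 14 genes that supply electrons and heme to P450 enzymes, 6 fell and 3 rose in OVX livers (median -0.27), and 8 rose and 0 fell in LCAT livers (median 0.47). All genes tested gave 20.6% lower and 19% higher in OVX livers, and 20.2% higher and 20.5% lower in LCAT livers. Por, the electron donor of all microsomal P450 enzymes, had 3515, 2962, 2792 and 1993 in OVX livers, against 9248, 7845, 6977 and 6606 in Sham livers (log2 -1.46, SE 0.18, limma adjusted p = 0.000568). It had 5874, 7963, 8948 and 9208 in LCAT livers, against 4655, 4838, 4545 and 4903 in Vec livers (log2 0.74, limma adjusted p = 0.00431). Alas1, the first enzyme of heme synthesis, changed by -1.09 in OVX and 0.78 in LCAT livers, and Cpox, a later one, by -0.85 in OVX livers. Alad and Urod rose in LCAT livers, by 0.90 and 0.71.

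Lists of markers of position in the lobule and of other cell types are given beside the Cyp2 changes, and their part in these changes was not tested. For these and the lists of the next paragraph, the shares over all genes tested serve as the measure. They were 20.6% lower and 19% higher in OVX livers, and 20.2% higher and 20.5% lower in LCAT livers. All 12 pericentral genes outside Cyp2 rose in LCAT livers (median 2.94), with summed counts of 18666 to 45815 in LCAT and 5794 to 7032 in Vec libraries. Glul, the glutamine synthetase gene of the innermost pericentral hepatocytes, had 4920.4, 10759, 12743 and 15285 in LCAT livers, against 1651, 1239, 1237 and 1608 in Vec livers. As with Cyp2e1, LCAT library 1 was lowest. Cyp1a2 (2.92), Rhbg (3.58) and Rgn (3.18) rose with it. In OVX livers 2 of these 12 genes fell and 1 rose (median -0.01; sums 12886 to 13214 in OVX and 11163 to 18674 in Sham libraries). Of 12 periportal genes, 10 fell and 1 rose in OVX livers (median -0.91; sums 68482 to 75452 in OVX and 163082 to 194508 in Sham libraries), and 6 rose and 1 fell in LCAT livers (median 0.41; sums 104579 to 137932 in LCAT and 83334 to 95169 in Vec libraries). Asl changed by -1.51 in OVX and 1.70 in LCAT livers, Ass1 by -1.58 and 0.81, and Pck1 by -2.77 in OVX livers.

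In OVX livers all 12 proliferation genes rose (median 3.13; sums 3109 to 4325 in OVX and 784 to 931.7 in Sham libraries), as did 9 of 11 liver tumour markers (median 0.81; sums 50411 to 59686 in OVX and 29421 to 30195 in Sham libraries). Mki67 had 537, 611, 688 and 1031 in OVX livers, highest in library 4 like Cyp2a4, Cyp2b9 and Cyp2f2, against 54.8, 80.6, 78.3 and 109 in Sham livers, whereas Afp, with 20479.8, 17677, 14478 and 5344 in OVX livers, was lowest there, against 7013, 6235, 5607 and 3985 in Sham livers. In LCAT livers 1 of the 12 proliferation genes rose (median 0.06), and 5 of 11 tumour markers fell and 2 rose (median -0.72). Hepatocyte markers fell in 4 of 11 cases in OVX livers (median -0.42) and in LCAT livers rose in 5 and fell in 2 (median 0.28). All 8 Kupffer cell markers rose in LCAT livers (sums 4955 to 5972 in LCAT and 1778 to 2093 in Vec libraries) and 3 of 8 fell in OVX livers (sums 4466 to 6672 in OVX and 6027 to 6662 in Sham libraries). Of the cholangiocyte markers, 3 of 7 rose and 1 fell in OVX livers, with summed counts of 36080.2 to 104019 in OVX and 15728 to 22188 in Sham libraries. In LCAT livers 5 of 8 rose and 1 fell, yet their summed counts lay lower, at 22931 to 30703 in LCAT and 68165 to 85521 in Vec libraries. Endothelial markers fell in 4 of 8 cases in OVX livers (sums 3588 to 3699.7 in OVX and 4722 to 4828 in Sham libraries) and in LCAT livers rose in 5 and fell in 2 (sums 2540.3 to 4654 in LCAT and 2593 to 3168 in Vec libraries). Stellate markers rose in 5 and fell in 2 of 8 in OVX livers (sums 8182 to 12714 in OVX and 6329 to 6928 in Sham libraries) and rose in 3 and fell in 1 in LCAT livers (sums 8193 to 9006 in LCAT and 8740.2 to 9221 in Vec libraries). Of the erythroid markers, 3 of 5 fell in OVX livers (sums 2803 to 5083 in OVX and 3766 to 20570.2 in Sham libraries), and 4 of 5 fell and 1 rose in LCAT livers (sums 3705 to 7129 in LCAT and 11913 to 13142 in Vec libraries). T cell markers rose in 2 of 2 tested cases in OVX livers and in 0 of 3 in LCAT livers, and B cell markers in 2 of 2 and in 1 of 2. Of the neutrophil markers 1 rose and 1 fell of 4 in OVX livers and 2 of 3 rose in LCAT livers. Of the intestine markers 1 rose and 1 fell of 3 in OVX livers and 2 of 3 rose in LCAT livers, of the adrenal or gonad markers 1 of 3 and 1 of 2 fell, and the 1 airway marker tested passed in LCAT livers and not in OVX livers. The 1 kidney marker in the table summed to at most 2.20 counts in any library.

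Beyond the motifs already shown, 34 of the 41 genes had a RefSeq promoter, 35 promoters in all. The TATA box TATAAA was found in 48.6% of them and in 12.4% of all promoters, the C/EBP motif TTGCNNAA in 31.4% and 9.56%, the HNF1 element GTTAAT in 17.1% and 6.43%, and the PAR bZIP motif TTANGTAA in 2.86% and 2.06%, each on both strands of the 250 bases. The STAT5 motif TTCNNNGAA was found in 0 of the 35 and in 7.02% of all promoters. Near copies share ancestry, so these 35 are not independent.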

How the data were processed

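Liver messenger RNA was measured in 16 libraries, 4 in each of 4 groups. Per the labels' protocols, TRIzol was used to extract RNA, and libraries followed BGI's instructions. The tools FastQC, HISAT2, SAMtools, StringTie and mm10 are named per the submitters' processing notes, without versions or strand setting. The deposited values are a normalised count signal: the authors divided read counts by a size factor for each library, as the values show, since 100% of them came out as whole reads within 0.01 read. Dividing by size factors ties a change to the typical gene. Gene names had been turned into dates in 24 cases and none is named here.

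log2(value + 1) was compared with limma 3.58.1 (trended, robust prior; R 4.3.3) for OVX against Sham and LCAT against Vec, keeping genes that averaged 10 or more in the 8 libraries, with Benjamini-Hochberg adjustment over all genes tested and a threshold of 0.05. Fold changes on this scale understate those of low genes. The difference of effects came from 1 fit of all 16 libraries. edgeR 4.0.16 and DESeq2 1.42.0 ran on the recovered reads: edgeR called 2486 genes higher and 2639 lower in OVX livers and 2898 and 2484 in LCAT livers. Other alternatives were pseudocounts of 0.5 and 5, filters, scalings, array weights, the replicate block and leaving out each library. Fits were tested on simulated data. Lcat was compared by an exact permutation test in SciPy 1.17.1.

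Transcript lengths, coordinates and coding identity came from GENCODE M21 on GRCm38 (41 of 41 genes matched) and promoters from RefSeq (GRCm38.p6), aligned with Biopython 1.88. The Cyp2 genes and gene lists were chosen with earlier results of these data known. Values in every library were given for single-gene subfamilies and, in the others, for up to 3 called genes with the largest change and the one with the highest mean. Cyp2a5, Cyp2c29, Cyp2c44, Cyp2c50, Cyp2c54, Cyp2c55, Cyp2d12 and Cyp2d34 were given beyond that rule, after their values were seen. Lists were given by counts and medians with up to 4 genes of smallest p, plus Nr1i3, Nr1i2, Por, Esr1 and Stat5b, and Mki67, Afp and Alb were chosen after their values were seen.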

Additional observations from a re-analysis of the deposited data

Results flagged for a closer look

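Among 154 groups of 4 libraries with any spread, 15 held a library whose gap to its nearest neighbour passed Dixon's 95% critical value for 4 samples as a share of the group's range, where chance gives about 1 in 20. These libraries, with their normalised counts, were Cyp2c44 in OVX library 4 (716), Cyp2c69 in LCAT library 1 (272), Cyp2d11 in LCAT library 2 (1977), Cyp2d12 in LCAT library 2 (44.0), Cyp2d12 in Vec library 3 (525), Cyp2r1 in Sham library 1 (212), Cyp2c55 in OVX library 4 (90.5), Cyp2d34 in OVX library 2 (10.8), Cyp2g1 in OVX library 4 (14.8), Cyp2g1 in Sham library 1 (12.6), Cyp2g1 in Vec library 2 (2.44), Cyp2t4 in LCAT library 3 (0), Cyp2c65 in LCAT library 1 (3.11), Cyp2b19 in LCAT library 4 (3.09) and Lcat in LCAT library 4 (4531). Of these genes, Cyp2c44, Cyp2c55, Cyp2r1 and Lcat were counted in all 16 libraries. For Cyp2c69, Cyp2d11, Cyp2d12, Cyp2d34, Cyp2c65 and Cyp2b19, and for Cyp2g1 in Vec livers, every other library of the group was at 0. The gap was then the whole range whatever the count, so passing was fixed and the rate of 1 in 20 does not apply to them.

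For 26 Cyp2 genes the OVX effect differed from the LCAT effect by limma at an adjusted p below 0.05. The differences on the log2 scale were Cyp2a12 (-0.74), Cyp2e1 (-5.04), Cyp2f2 (-2.65), Cyp2c70 (-0.97), Cyp2d10 (-1.42), Cyp2d9 (-1.69), Cyp2j5 (-1.26), Cyp2c29 (-6.49), Cyp2d22 (-1.19), Cyp2a22 (-0.69), Cyp2c68 (-2.30), Cyp2c40 (-2.97), Cyp2c67 (-3.41), Cyp2d40 (-1.86), Cyp2c50 (-5.72), Cyp2c44 (-1.51), Cyp2c37 (-5.97), Cyp2c38 (-5.40), Cyp2d11 (-10.05), Cyp2c54 (-5.67), Cyp2u1 (-1.10), Cyp2j9 (-3.10), Cyp2b10 (-3.99), Cyp2c39 (-4.13), Cyp2c55 (-2.60) and Cyp2s1 (2.43). Surgery and vector, experiment, and sex as read from the Y-linked genes cannot be told apart in these differences. The size of the Cyp2d11 difference is poorly fixed, running from -55.96 to -7.31 over the alternatives. That gene was at 0 in every OVX and Vec library and had 0, 1977, 0 and 0 in LCAT livers.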

How the results depend on the processing

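Of the called Cyp2 genes, 15 of 24 in the OVX comparison, 20 of 22 in the LCAT comparison and 24 of 26 differences of effects stayed past the threshold in every alternative that gave an adjusted p, other than libraries 1 and 4 alone, and no called gene changed sign. Uncalled genes that passed in at least 1 of these alternatives were Cyp2a5, Cyp2f2, Cyp2d9, Cyp2d12, Cyp2j5, Cyp2b9 and Cyp2c55 in the OVX comparison. They were Cyp2a5, Cyp2a12, Cyp2c70, Cyp2a22, Cyp2b9 and Cyp2d11 in the LCAT comparison, and Cyp2c69 and Cyp2b13 in the difference. Equal library totals gave 6 Cyp2 genes higher in OVX livers, and libraries 1 and 4 alone gave 0 higher and 0 lower in OVX livers and 0 higher and 0 lower in LCAT livers. Genes lower in LCAT livers numbered 1 with a pseudocount of 5, no filter, a mean of at least 50, no trend or robust prior, the replicate block, edgeR and DESeq2. The difference of effects was above 0 in 0 genes at a mean of at least 50 and in 2 with array weights. Leaving out 1 library at a time gave 1 to 3 genes lower in LCAT livers and 1 to 2 differences above 0. For Lcat it gave log2 changes of -0.78 to -0.70 in OVX and 0.47 to 0.68 in LCAT livers, all at an exact permutation p of 0.0571, the smallest that 3 against 4 allows, and equal totals gave 0.35 in LCAT livers. The causes of these shifts were not tested.

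With TMM scaling, signs reversed, as log2 changes, in the OVX comparison for Cyp2d12 (0.018). With equal library totals, signs reversed, as log2 changes, in the OVX comparison for Cyp2d26 (0.12), Cyp2j5 (0.14), Cyp2j6 (0.21) and Cyp2d12 (0.24), and in the LCAT comparison for Cyp2d26 (-0.14), Cyp2j6 (-0.054) and Cyp2r1 (-0.080), and in the difference of effects for Cyp2a4 (0.15), Cyp2a5 (0.13), Cyp2d26 (0.26), Cyp2j6 (0.26), Cyp2b9 (0.42) and Cyp2r1 (0.075). With array weights, signs reversed, as log2 changes, in the OVX comparison for Cyp2a4 (-0.15) and Cyp2d12 (0.043), and in the LCAT comparison for Cyp2d12 (2.60) and Cyp2r1 (-0.045), and in the difference of effects for Cyp2d12 (-2.43). By edgeR, signs reversed, as log2 changes, in the OVX comparison for Cyp2d12 (0.011), and in the LCAT comparison for Cyp2b13 (0.00056) and Cyp2b10 (0.048), and in the difference of effects for Cyp2b9 (0.13) and Cyp2c69 (-1.03). By DESeq2, signs reversed, as log2 changes, in the OVX comparison for Cyp2d12 (0.0058), and in the LCAT comparison for Cyp2b10 (0.023), and in the difference of effects for Cyp2b9 (0.14) and Cyp2c69 (-1.12). With libraries 1 and 4 alone, signs reversed, as log2 changes, in the OVX comparison for Cyp2d9 (-0.0085) and Cyp2c55 (0.033). Leaving out 1 library at a time, values of either sign were found in the OVX comparison for Cyp2d9 (-0.016 to 0.077), Cyp2j6 (-0.091 to 0.0061), Cyp2a4 (-0.22 to 0.18) and Cyp2d12 (-0.050 to 0.047). Leaving out 1 library at a time, values of either sign were found in the LCAT comparison for Cyp2a4 (-0.035 to 0.59), Cyp2d26 (-0.041 to 0.14), Cyp2r1 (-0.075 to 0.19), Cyp2b13 (-0.84 to 0.075) and Cyp2b10 (-0.43 to 0.21). Leaving out 1 library at a time, values of either sign were found in the difference of effects for Cyp2b9 (-0.41 to 0.38), Cyp2a4 (-0.59 to 0.036), Cyp2a5 (-0.64 to 0.041), Cyp2d12 (-1.38 to 2.25) and Cyp2d34 (-0.070 to 2.01).

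Replicate numbers did not pair the libraries: correlations of deviations were -0.059 to 0.040 between OVX and Sham and -0.034 to 0.12 between LCAT and Vec libraries, and 1 of 4 numbers matched best in each. With the replicate block, 3 Cyp2 genes were higher and 19 lower in OVX livers, 19 higher and 1 lower in LCAT livers, and the difference was above 0 in 1 and below 0 in 25. DESeq2 gave no adjusted p for 16 genes in the OVX and 30 in the LCAT comparison. Array weights called 3674 genes higher and 3765 lower in OVX livers and 4064 and 4164 in LCAT livers, against 2484 and 2686 and 2651 and 2681. Genes with a mean under 10 counts were too shallow to test, and near copies limit what a single gene's count shows.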
